A study of Mus musculus with 17 samples.

Results

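The Krüppel-like factor (KLF) genes described here are Klf2, Klf3, Klf4, Klf5, Klf6, Klf7, Klf9, Klf10, Klf11 and Klf13, 10 of the 27768 gene names tested. They were taken by name, as the probes whose gene name on the array equals that of a member, which gave 12 of the 55681 non-control probes. All 12 were kept by the filter on dim probes, and on every array with spot flags each of them was well above background and none was saturated. Klf13 had 3 probes and every other member had 1.

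KLF proteins are transcription factors that bind GC-rich and CACCC sequences through zinc fingers at their carboxyl end. Their amino-terminal parts differ and sort the family by partner: Klf3 recruits the CtBP corepressor, Klf9, Klf10, Klf11 and Klf13 bind the Sin3 corepressor, and Klf2, Klf4, Klf5, Klf6 and Klf7 act mostly as activators. In the intestinal epithelium Klf5 is known for its place in the dividing crypt cells, and Klf4 for its place in differentiated cells, where it is needed for goblet cell maturation in the colon.

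Promoters of the 4 members with a called difference are shown because KLF and related SP proteins bind the GC box and the CACCC box, which KLF promoters themselves can hold. Each sequence is the 250 bases before the gene's start, 5′ to 3′ on the gene's strand, from RefSeq on GRCm38.p6, and 8 of the 10 members had an entry there; Klf5 and Klf10 are named only. Capitals mark the GC box, whose letters are GGGCGG, the box named after its letters CACCC and, in Klf2 alone of these 4, a MEF2 site, each searched on both strands. The Klf2 promoter is chr8:72318812-72319061 on the plus strand, and that of Klf6 is chr13:5861239-5861488 on the plus strand. The Klf4 promoter is chr4:55532476-55532725 on the minus strand, and that of Klf7 is chr1:64121390-64121639 on the minus strand.
Klf6: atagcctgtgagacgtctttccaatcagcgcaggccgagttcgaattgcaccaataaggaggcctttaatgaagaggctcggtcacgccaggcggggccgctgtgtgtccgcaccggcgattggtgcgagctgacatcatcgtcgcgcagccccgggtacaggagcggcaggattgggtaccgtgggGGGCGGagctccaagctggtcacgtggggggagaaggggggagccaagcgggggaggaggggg
Klf7: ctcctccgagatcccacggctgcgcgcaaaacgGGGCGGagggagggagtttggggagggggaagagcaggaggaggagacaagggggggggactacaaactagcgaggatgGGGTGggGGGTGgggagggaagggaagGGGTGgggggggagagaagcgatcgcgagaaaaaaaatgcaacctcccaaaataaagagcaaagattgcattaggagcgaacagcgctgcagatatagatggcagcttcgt
Klf4: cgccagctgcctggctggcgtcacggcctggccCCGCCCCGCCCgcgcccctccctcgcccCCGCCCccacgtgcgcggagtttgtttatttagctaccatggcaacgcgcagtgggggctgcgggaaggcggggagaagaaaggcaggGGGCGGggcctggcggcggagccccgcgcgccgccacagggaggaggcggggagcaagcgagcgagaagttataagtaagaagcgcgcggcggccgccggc
Klf2: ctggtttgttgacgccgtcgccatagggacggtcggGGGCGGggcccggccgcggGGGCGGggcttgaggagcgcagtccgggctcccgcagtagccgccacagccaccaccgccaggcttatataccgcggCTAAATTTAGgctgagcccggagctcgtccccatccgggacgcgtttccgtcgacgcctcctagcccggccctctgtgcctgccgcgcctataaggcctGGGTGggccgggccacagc
The Klf4 promoter held 4 GC boxes, of which a pair overlap by 1 base, and no CACCC box. Klf2 held 2 GC boxes, 1 CACCC box and 1 MEF2 site, Klf7 held 1 GC box and 3 CACCC boxes, and Klf6 held 1 GC box with 4 CCAAT boxes. Of the 8 members with an entry, 7 had a GC box, against 32.7% of the 32851 promoters in the table, and 5 had a CACCC box, against 52.0%. These windows are GC-rich, with 71.2% G or C in Klf2, 74.0% in Klf4, 64.8% in Klf6 and 59.2% in Klf7 against a median of 52.4% over all promoters, and these shares were not matched for base composition. A MEF2 site was found in 3.2% of all promoters. The E-box CACGTG, found in 6.02% of all promoters, was present once each in Klf4, Klf6 and Klf11. No match of the p53 half-site or the CArG box lay in any of the 8 windows, and these letters matched 1.63% and 1.47% of all promoters. The half-site was searched with the core letters CATG only, so its other forms were not looked for. A match is a description of the letters, not of a bound site, and no match says only that the letters are not in this window.

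RNA was measured on 17 single-colour arrays from sorted cells labelled intestinal stem cells, of LGR5-GFPki mice, in which green fluorescent protein reports Lgr5, the R-spondin receptor of crypt base stem cells. The cells were sorted by flow cytometry as LGR5hi or LGR5lo 3 hours after 12 Gy of gamma-irradiation, or with none, and 50 ng of RNA was labelled. Non-irradiated LGR5lo cells have 5 arrays and the 3 other groups have 4 each, of which 2 are female in every group and the rest male. All groups carry the reporter allele, the labels give no age and do not say whether an array is 1 animal or a pool, so p-values measure the spread between these arrays.

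Levels are normalized log2 signals: the log2 of the processed Cy3 signal minus the array's 75th percentile, so 0 is the level of that percentile and a step of 1 is a factor of 2. Differences were tested with limma over all 17 arrays, and a gene was called where the Benjamini-Hochberg adjusted p over the 27768 names was below 0.05. Lgr5 was higher in LGR5hi by 3.14 ± 0.28 log2 (SE) in non-irradiated and 2.89 ± 0.29 in irradiated cells, and 11 of 11 LGR5 stem cell markers were higher in each. On irradiation Lgr5 fell by 1.53 in LGR5hi and 1.27 in LGR5lo, and 7 and 5 of the 11 markers fell, with medians of -0.99 and -0.91; the part of this in the KLF changes on irradiation was not tested. The p53 targets Cdkn1a and Mdm2 rose on irradiation by 4.91 ± 0.31 and 3.15 ± 0.29 in LGR5hi and by 2.90 ± 0.30 and 2.95 ± 0.28 in LGR5lo. Non-irradiated LGR5lo replicate 2 stood apart: 95.6% of its spots were well above background, against 58.9% to 73.9% on the 15 other arrays with flags, and its spike-in slope was 0.791. On that array 9 members lay below the mean of the other 4 arrays of their group, by 0.07 (Klf2) to 1.16 (Klf6) log2, and Klf11 lay 1.18 above it. Arrays numbered 1 and 2 lay on slide 1, those numbered 3 and 4 on slide 2, and non-irradiated LGR5lo replicate 5 on slide 3.

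The first question was which KLF genes changed on irradiation. Klf6 and Klf7 rose in both sorts, Klf2 fell in LGR5lo, and the 7 other members were not called in either sort. In LGR5hi, 2 of 10 members were called, both higher, where 13.5% of all gene names were called, 6.18% higher and 7.29% lower. In LGR5lo, 3 of 10 members were called, where 7.49% of all names were called, 4.47% higher and 3.02% lower. Those 3 were also the members whose LGR5lo groups did not overlap, against 10.8% of all names, 5.95% higher and 4.87% lower. The median difference over the 10 members was 0.24 log2 in LGR5hi and 0.18 in LGR5lo, against -0.02 and -0.13 over all genes. Most members lay lower on non-irradiated LGR5lo replicate 2 than on the rest of their group, which raises the LGR5lo median. That median was not computed without this array. Without non-irradiated LGR5lo replicate 2 the same members were called in both sorts. With each array centred on its median, Klf6 and Klf7 in LGR5hi had differences of 1.62 and 1.41 and limma adjusted p of 0.0729 and 0.0568, and in LGR5lo Klf6 had 0.065; with that array also left out, 2 members were called in each sort.

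Klf6 is a widely expressed activator that many cell types induce within hours of injury or growth signals. In non-irradiated LGR5hi cells its level was 3.31, 2.29, 3.27 and 2.59 on replicates 1 to 4, and in irradiated LGR5hi cells it was 4.63, 4.37, 4.41 and 4.62. Every irradiated array lay above every non-irradiated one by over 1 log2. Klf6 rose by 1.64 ± 0.27 log2 (SE), 3.12-fold, with a limma adjusted p of 0.000568. In LGR5lo it was 3.11, 1.90, 3.14, 2.91 and 3.07 without irradiation and 4.09, 3.91, 3.77 and 3.87 after it, and again the groups did not overlap. The rise in LGR5lo was 1.08 ± 0.26 log2, 2.12-fold (limma adjusted p = 0.0166). Without non-irradiated LGR5lo replicate 2, which held the lowest value, that rise was 0.85 ± 0.19 (limma adjusted p = 0.0123), and without irradiated LGR5lo replicate 1 the adjusted p was 0.0583. Within slide 1 and slide 2 Klf6 was higher after irradiation by 1.70 and 1.58 in LGR5hi, and by 1.49 and 0.79 in LGR5lo.

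Klf7, an activator known from neuronal development and from restraining adipocyte formation, followed a similar course. Its level in LGR5hi was 2.51, 2.21, 1.46 and 2.25 without irradiation and 3.63, 3.59, 3.57 and 3.38 with it. All 4 irradiated arrays were higher than any non-irradiated one, and the rise was 1.43 ± 0.21 log2, 2.70-fold (limma adjusted p = 0.000247). In LGR5lo it was 2.06, 1.37, 1.37, 2.02 and 1.72 without irradiation and 2.74, 2.84, 2.91 and 2.64 with it, which do not overlap either. That rise was 1.08 ± 0.20 log2, 2.11-fold (limma adjusted p = 0.0037), and it stayed called with any single array left out. Within slides 1 and 2 the difference was 1.25 and 1.62 in LGR5hi and 1.07 and 1.08 in LGR5lo. In LGR5hi the irradiated arrays lay closer together, with an SD of 0.13 against 0.50 for Klf6 and 0.11 against 0.45 for Klf7. In LGR5lo the SDs were 0.13 against 0.52, which includes the low replicate 2, and 0.12 against 0.34. The irradiated SD in LGR5hi was also smaller for Klf2, Klf3, Klf4 and Klf13, and not for Klf5, Klf9, Klf10 and Klf11. The share over all gene names was not computed.

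**Figure D1:**
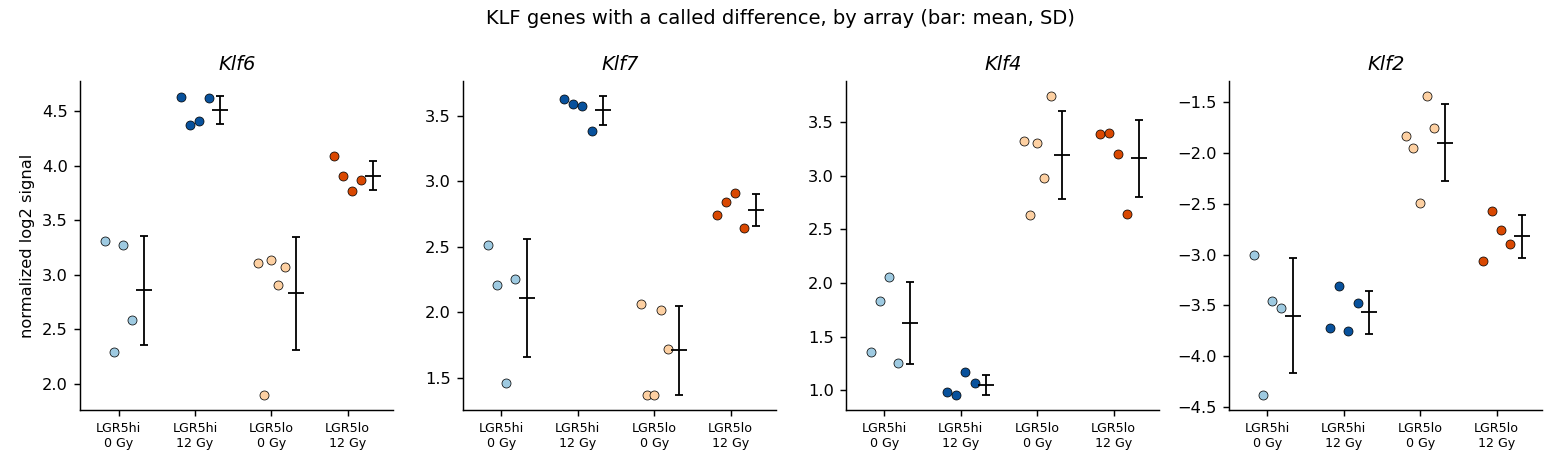
Normalized log2 signal of Klf6, Klf7, Klf4 and Klf2 on each of the 17 arrays; points are arrays, and the bar beside each group is the mean with its SD. Klf6 and Klf7 lie higher in both irradiated groups, Klf4 lies lower in both LGR5hi groups, and Klf2 is highest in non-irradiated LGR5lo cells.

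Klf2 is best known as the flow-induced factor of endothelium and as a factor of resting lymphocytes. In LGR5lo its level was -1.83, -1.95, -2.49, -1.44 and -1.76 without irradiation and -3.06, -2.57, -2.76 and -2.90 after it. The groups do not overlap, and the lowest non-irradiated array lies next to the highest irradiated one. Klf2 fell by 0.93 log2 (SE 0.25), a 1.90-fold change, with a limma adjusted p of 0.0326. The call was lost, at adjusted p from 0.0533 to 0.103, without non-irradiated LGR5lo replicate 1, 4 or 5 or irradiated LGR5lo replicate 1, 3 or 4, and also with slide as a block (0.0648) and with the replicate block over all groups (0.0762). Under quantile normalization the difference was -0.35 (limma adjusted p = 0.676), and -0.82 (0.076) when non-irradiated LGR5lo replicate 2 was also left out. In LGR5hi, where Klf2 was -3.0, -4.38, -3.46 and -3.53 without irradiation and -3.72, -3.31, -3.75 and -3.48 with it, the groups overlapped. The difference there was 0.03 ± 0.26 log2, with a 95% interval from -0.53 to 0.59.

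Klf4, which slows division and marks differentiating epithelium, was not called on irradiation. In LGR5hi it was 1.36, 1.83, 2.06 and 1.26 without irradiation and 0.99, 0.96, 1.17 and 1.07 with it, so all irradiated arrays were the lower ones. The difference of -0.58 ± 0.24 log2 (95% interval -1.10 to -0.07) had a limma adjusted p of 0.147. Groups that do not overlap were seen for 3 of the 10 members in this comparison (Klf4, Klf6 and Klf7), against 23.8% of all gene names, and 13.0% with the irradiated group lower. In LGR5lo, Klf4 differed by -0.03 ± 0.23 (95% interval -0.52 to 0.45), and its 5 non-irradiated arrays, from 2.63 to 3.74, spanned the 4 irradiated ones, from 2.64 to 3.4.

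Klf5, the KLF of dividing crypt cells, had values within 4.73 to 5.61 on all 17 arrays. Its irradiation difference was -0.04 ± 0.17 log2 in LGR5hi (95% interval -0.41 to 0.33) and 0.19 ± 0.17 in LGR5lo (-0.17 to 0.54). No group of arrays stood apart from another in this gene. Klf3, the CtBP-binding repressor, ranged from 4.02 to 5.35 over the arrays and differed by 0.24 ± 0.21 in LGR5hi and 0.33 ± 0.20 in LGR5lo, with overlapping groups in both.

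Of the Sin3-binding members none was called on irradiation in either sort. Klf10, an early gene of TGF-β signalling, was 1.64, 2.22, 1.62 and 1.72 in non-irradiated LGR5hi cells and 2.43, 2.56, 2.17 and 1.92 in irradiated ones, which overlap through non-irradiated replicate 2. Its difference was 0.47 ± 0.20 log2 in LGR5hi (limma adjusted p = 0.169) and 0.17 ± 0.19 in LGR5lo (limma adjusted p = 0.588). Klf9, a gene that glucocorticoid and thyroid hormone induce, differed by 0.42 ± 0.24 and 0.45 ± 0.23 (limma adjusted p = 0.358 and 0.237). Klf11, a relative of Klf10 that TGF-β also induces, differed by 0.08 ± 0.27 in LGR5hi and by -0.54 ± 0.25 in LGR5lo (limma adjusted p = 0.929 and 0.206). Klf13, known for driving chemokine expression in T cells, differed by 0.24 ± 0.20 and 0.11 ± 0.19.

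**Figure D2:**
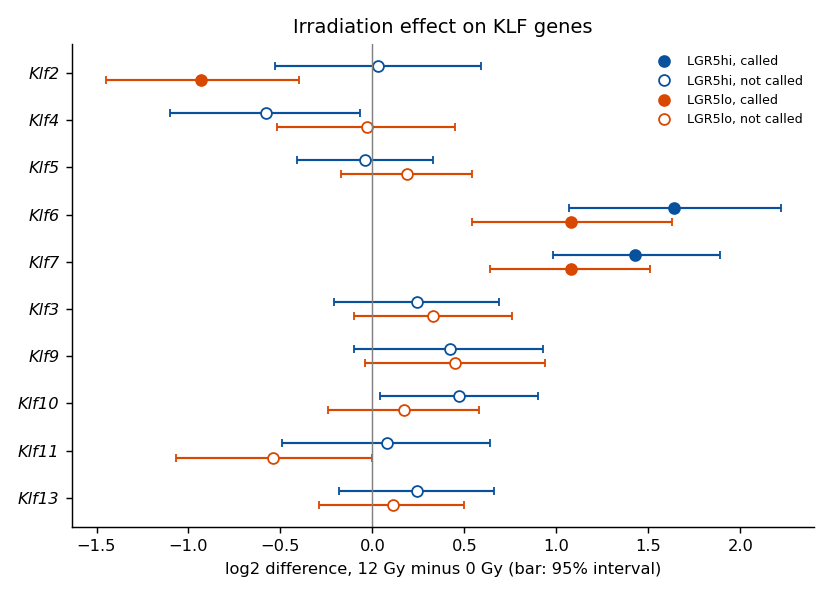
Log2 difference between irradiated and non-irradiated arrays for the 10 KLF genes in LGR5hi and LGR5lo cells, with 95% intervals; filled points are called at a limma adjusted p below 0.05. Klf6 and Klf7 are higher in both sorts, and Klf2 is lower in LGR5lo.

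Whether irradiation acted differently in the sorts was tested as the difference of the effects, for which limma called 0 of 10 members and 0.0396% of all names (0.036% higher and 0.0036% lower); 1 member had an unadjusted p below 0.05. That member was Klf2, whose effects differed by 0.96 ± 0.36 log2 (95% interval 0.19 to 1.72, limma adjusted p = 0.654). The difference was 0.56 ± 0.37 for Klf6 (-0.23 to 1.35), 0.36 ± 0.30 for Klf7 (-0.27 to 0.99), 0.62 ± 0.37 for Klf11 (-0.16 to 1.39) and -0.55 ± 0.33 for Klf4 (-1.26 to 0.16). The median SE of this contrast over all genes was 0.36. The larger rise of Klf6 in LGR5hi and the fall of Klf2 in LGR5lo are therefore not shown to differ between the sorts. The comparisons of the sorts below use the same arrays as these.

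The next question was which KLF genes separate LGR5hi from LGR5lo cells. Klf4 was lower in LGR5hi in both arms, Klf2 was lower in LGR5hi without irradiation, and Klf7 was higher in LGR5hi after it. In non-irradiated cells 2 of 10 members were called, both lower in LGR5hi, where 9.55% of all names were called, 4.62% higher and 4.93% lower. The groups of those 2 members, and of no other, did not overlap, against 10.9% of all names, 5.7% higher and 5.17% lower. In irradiated cells 1 member was called higher and 1 lower, where 6.31% of all names were called, 2.21% higher and 4.09% lower. In bulk RNA of sorted cells, fewer cells of a type and less RNA per cell cannot be told apart.

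Klf4 in non-irradiated cells was 1.36, 1.83, 2.06 and 1.26 in LGR5hi against 3.32, 2.63, 3.30, 2.98 and 3.74 in LGR5lo. No LGR5hi array reached the lowest LGR5lo array, and the difference was -1.56 ± 0.23 log2, 2.95-fold higher in LGR5lo (limma adjusted p = 0.000328). In irradiated cells it was 0.99, 0.96, 1.17 and 1.07 against 3.39, 3.4, 3.20 and 2.64, a gap of over 1 log2 between the groups. That difference was -2.11 ± 0.24 log2, 4.32-fold (limma adjusted p = 3.98e-05), and it stayed called with each array left out in turn. Same-numbered LGR5hi and LGR5lo arrays of an arm deviated together, and Klf4 was lower in LGR5hi in 4 of 4 such pairs in each arm, with differences of -1.96 to -0.80 log2 without irradiation and -2.44 to -1.57 with it. Within slides 1 and 2 the difference was -1.38 and -1.47 without irradiation and -2.42 and -1.80 with it. With each array centred on its median, the difference without irradiation was -1.09 (limma adjusted p = 0.155), and it was called when non-irradiated LGR5lo replicate 2 was also left out. The order of the 4 groups was irradiated LGR5hi, non-irradiated LGR5hi, and then both LGR5lo groups, whose means of 3.16 ± 0.36 (SD, n = 4) and 3.19 ± 0.41 (SD, n = 5) differed by less than their spread.

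Most markers of goblet, enteroendocrine and tuft cells were, like Klf4, lower in LGR5hi. Of 10 listed goblet markers 9 were tested, and 8 of the 9 were lower in LGR5hi in each arm, with a median of -2.45 log2 without irradiation and -2.91 with it; Clca1 was not. Their summed linear level, relative to each array's 75th percentile, ranged from 609 to 909 in non-irradiated and 687 to 764 in irradiated LGR5hi cells, and from 1780 to 4390 and 2601 to 3662 in the LGR5lo groups. Spdef and Atoh1, which direct the secretory lineage, differed by -2.82 and -2.45 log2 without irradiation. All 12 enteroendocrine markers were lower in LGR5hi in both arms, as were 9 of 9 tuft markers without irradiation and 8 of 9 with it. The enteroendocrine medians, -3.84 log2 without irradiation and -4.43 with it, were larger differences than the goblet ones. The tuft median was -1.89 in each arm. Of the enterocyte markers 0 of 12 were called between the sorts without irradiation and 1 of 12, lower, with it (medians -0.48 and -0.90), and of the Paneth markers 1 of 6, lower, and 0 of 6 (medians -0.56 and -0.86). On irradiation 0 of 9 goblet markers were called in either sort. The part of these cell types in the Klf4 difference was not tested.

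Klf2 in non-irradiated cells was -3.0, -4.38, -3.46 and -3.53 in LGR5hi against -1.83, -1.95, -2.49, -1.44 and -1.76 in LGR5lo. The groups do not overlap, and the difference was -1.70 ± 0.25 log2, 3.25-fold higher in LGR5lo (limma adjusted p = 0.000316). Within slides 1 and 2 it was -1.80 and -1.54, and under quantile normalization it was -1.15 (limma adjusted p = 0.111), and it was called when non-irradiated LGR5lo replicate 2 was also left out. In irradiated cells Klf2 was again lower on every LGR5hi array, -3.75 to -3.31 against -3.06 to -2.57, but the difference of -0.74 ± 0.26 log2 (95% interval -1.30 to -0.19) was not called (limma adjusted p = 0.123), nor with the replicate block within each arm (0.11). With the replicate block as a random effect it lay at the threshold (limma adjusted p = 0.05). It was called with only the compared groups (limma adjusted p = 0.0191) and with array weights (0.0385). The block within each arm called it once non-irradiated LGR5lo replicate 2 was left out (0.032). Without a block it was called in 0 of 17 fits that left out 1 array. In 4 of 4 same-numbered pairs of each arm Klf2 was lower in LGR5hi. The means ordered the groups as non-irradiated LGR5lo, -1.90 ± 0.38 (SD, n = 5), irradiated LGR5lo, -2.82 ± 0.21 (SD, n = 4), and then both LGR5hi groups at -3.57 ± 0.21 and -3.60 ± 0.57 (SD, n = 4), which differed by less than their spread.

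Because Klf2 is a gene of endothelium and lymphocytes, markers of those cells were read beside it. Of 11 leukocyte markers tested, Cd52, Cd79b and Laptm5 were lower and Cd74 was higher in non-irradiated LGR5hi cells, and 0 of 11 were called between the sorts after irradiation. The summed leukocyte level was 89.2 to 148 in non-irradiated LGR5hi and 66.5 to 153 in non-irradiated LGR5lo cells, and 115 to 242 and 94.4 to 162 in the irradiated groups. That sum rests mostly on the bright markers Cd74 and Itgam, and the median difference over the 11 was -0.76 log2 without irradiation, the direction of Klf2, and -0.10 with it. Of 10 stromal and endothelial markers tested, 0 were called between the sorts without irradiation, and Vwf alone, higher in LGR5hi, with it. Their sum was 16.5 to 21.1 in non-irradiated LGR5hi against 16 to 32.3 in non-irradiated LGR5lo cells, and 18.9 to 24.6 against 14.8 to 19.1 in irradiated ones. By group means, most of this sum came from the bright marker Kdr. The median difference over the 10 was -0.59 log2 without irradiation, the direction of Klf2, and 0.30 with it, the other direction. Of the endothelial markers, Pecam1, Kdr and Vwf were well above background on every array with flags, Tek on 1 of 3 and 2 of 5 non-irradiated and 1 of 4 and 4 of 4 irradiated LGR5hi and LGR5lo arrays, and Cdh5 was not tested. On irradiation in LGR5lo the T cell marker Cd8a fell by 1.45 log2 and the B cell marker Cd79b rose by 0.87, and 0 of 10 stromal and endothelial markers were called. Medians there were -0.09 log2 over the leukocyte markers and -0.46 over the stromal and endothelial ones. The part of such cells in the Klf2 differences was not tested.

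Klf7 in irradiated cells was 3.63, 3.59, 3.57 and 3.38 in LGR5hi and 2.74, 2.84, 2.91 and 2.64 in LGR5lo, with no overlap. The difference was 0.76 ± 0.21 log2, 1.69-fold higher in LGR5hi (limma adjusted p = 0.0475). That call sat at the threshold: it was kept in 6 of 17 fits that left out 1 array, with limma adjusted p from 0.0159 to 0.125, and the difference itself stayed between 0.71 and 0.81. It was called with replicate number as a block within each arm (limma adjusted p = 0.0162), and not with the replicate block over all groups (0.0518), slide as a block (0.0501) or sex as a covariate (0.0515). In non-irradiated cells Klf7 was higher in LGR5hi in 4 of 4 pairs, by 0.10 to 0.84 log2, and the difference of 0.40 ± 0.20 was not called (limma adjusted p = 0.235). The 0.84 came from the pair with non-irradiated LGR5lo replicate 2, the array that stood apart, and the other pairs reached 0.45.

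Klf6 did not separate the sorts without irradiation, at 0.04 ± 0.26 log2 (95% interval -0.51 to 0.58). After irradiation every LGR5hi array, from 4.37 to 4.63, lay above every LGR5lo array, from 3.77 to 4.09, and the difference was 0.60 ± 0.27 (limma adjusted p = 0.255). With the replicate block within each arm it was called (limma adjusted p = 0.038), as a random effect it was not (0.096), and it was higher in LGR5hi in 4 of 4 pairs by 0.46 to 0.75. Klf11 was also higher on every irradiated LGR5hi array, at -2.51, -3.19, -2.40 and -2.73 in LGR5hi against -3.75, -3.43, -3.67 and -3.62 in LGR5lo. Its difference was 0.91 ± 0.27 (limma adjusted p = 0.0545), and without non-irradiated LGR5lo replicate 2 it was 0.91 ± 0.18 and was called (limma adjusted p = 0.00477). It was called with the replicate block as a random effect (0.0219) and not with the block within each arm (0.0761). In all, 6 of 10 members had irradiated groups that did not overlap, Klf6, Klf7, Klf11 and Klf13 higher and Klf2 and Klf4 lower in LGR5hi, against 21.1% of all gene names, 11.1% higher and 10.1% lower.

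The remaining members showed no called difference between the sorts. Klf5 differed by 0.02 ± 0.17 log2 without irradiation and -0.20 ± 0.17 with it, and Klf3 by 0.18 ± 0.20 and 0.09 ± 0.21. Klf10 differed by -0.36 ± 0.19 and -0.05 ± 0.20, Klf9 by 0.34 ± 0.23 and 0.30 ± 0.24, and Klf13 by 0.30 ± 0.19 and 0.44 ± 0.20. Klf9 was higher in LGR5hi in 4 of 4 pairs of each arm, by 0.04 to 0.92 without irradiation and 0.13 to 0.49 with it. The 0.92 came from the pair with non-irradiated LGR5lo replicate 2, the array that stood apart, and the other pairs of that arm reached 0.23. Klf9 was not called with the replicate block either, and the share of all gene names with such pairs was not computed. For Klf5, the 95% intervals of both sort differences lie within -0.57 to 0.37.

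**Figure D3:**
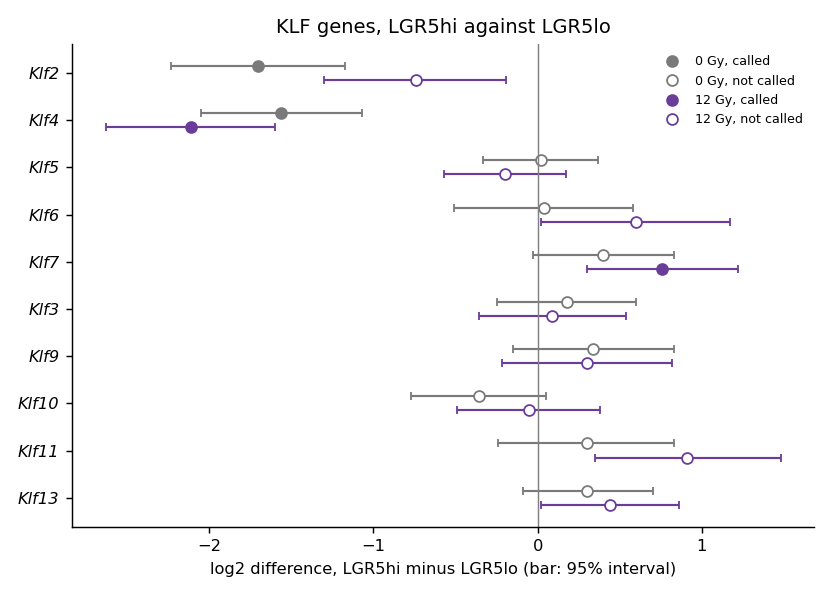
Log2 difference between LGR5hi and LGR5lo arrays for the 10 KLF genes, without irradiation and after 12 Gy, with 95% intervals; filled points are called at a limma adjusted p below 0.05. Klf4 lies furthest below 0 after irradiation, at -2.11, and Klf7 is the member called higher in LGR5hi.

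**Figure D4:**
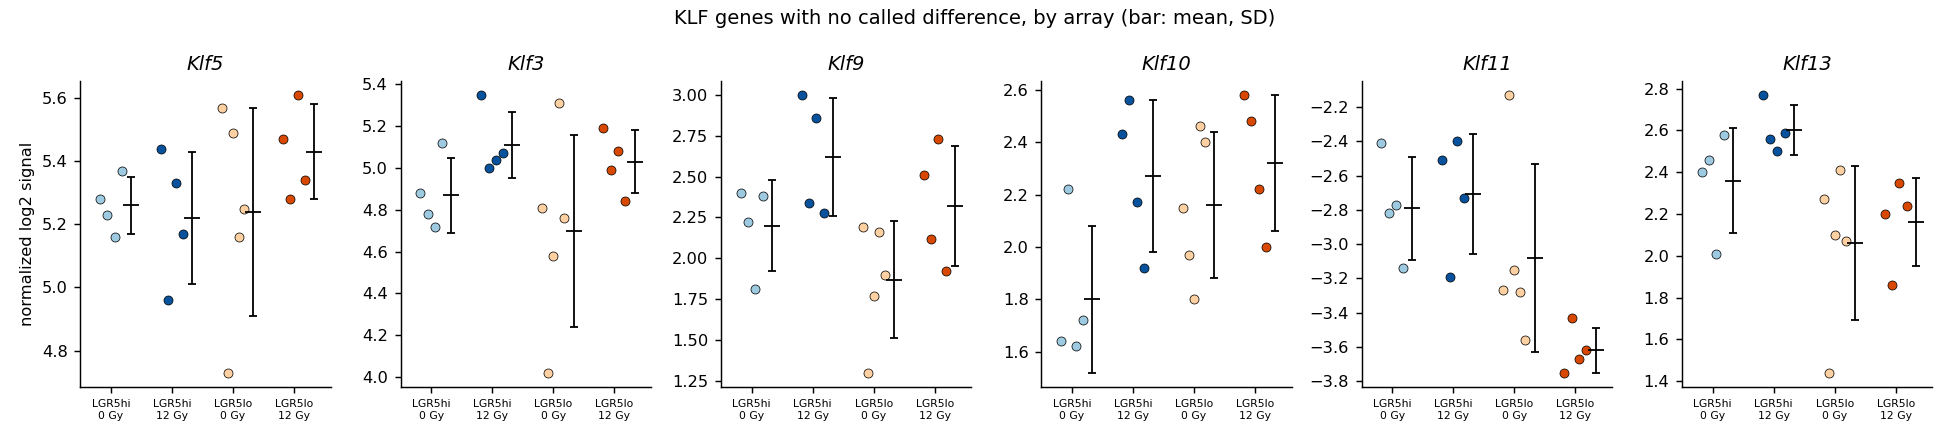
Normalized log2 signal on each of the 17 arrays for the 6 KLF genes with no called difference; points are arrays, and the bar beside each group is the mean with its SD. Within each of the tested comparisons the groups overlap, apart from Klf11 and Klf13 between the irradiated sorts, and for Klf11 the high point of the non-irradiated LGR5lo group is replicate 2 at -2.13.

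The 3 probes of Klf13 gave no call in any of the 5 comparisons. The tested probe, at mm9 chr7:71082854-71082913 on the minus strand per the array annotation, was the brightest over all arrays. A probe of the cDNA BC030682, which is annotated on the opposite strand at mm9 chr7:71032482-71032541, differed by 0.46 ± 0.14 log2 between the non-irradiated sorts (limma adjusted p = 0.0635 over kept probes). The probe whose mapping spans 32932 bases differed by -0.01 ± 0.29 there. The probe of Klf5 likewise maps across an intron, over 9733 bases. Klf6 was read at mm9 chr13:5869371-5869430, Klf7 at mm9 chr1:64082265-64082324, Klf4 at mm9 chr4:55540167-55540226 and Klf2 at mm9 chr8:74845137-74845196, and exon or UTR annotation of that build was not used here.

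The rest of the KLF and SP family was followed as a list of 16 genes, of which 14 were tested. On irradiation in LGR5hi 1 was higher and 1 lower, with a median of -0.03 log2, where 13.5% of all names were called. Sp4, an activator known from neurons, fell by 0.69 (SE 0.15) in LGR5hi and by 0.61 (SE 0.14) in LGR5lo (limma adjusted p = 0.00414 and 0.0133), the opposite direction to Klf6 and Klf7. Sp9 was not well above background on any flagged non-irradiated LGR5hi array and was on 4 of 4 irradiated ones, so its rise there is a bound of at least 2.12-fold, against the lowest signals well above background (limma adjusted p = 0.0267). Sp5, a direct target of Wnt signalling, was higher in LGR5hi by 2.27 ± 0.20 without irradiation and 2.09 ± 0.21 with it (limma adjusted p = 2.78e-06 and 1.1e-05), and it was the sole gene of this list called between the sorts. Its levels of 3.57 and 1.31 in non-irradiated and 3.51 and 1.43 in irradiated LGR5hi and LGR5lo cells place both LGR5hi groups above both LGR5lo groups.

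Of 30 known regulators and cofactors of KLF proteins, 4 rose and 1 fell on irradiation in LGR5hi, and 2 rose in LGR5lo, beside the 13.5% and 7.49% of all names called, so the counts are near the background. Tgfbr2, a TGF-β receptor whose promoter KLF proteins are known to bind, rose by 1.5 ± 0.25 log2 in LGR5hi and 1.79 ± 0.24 in LGR5lo (limma adjusted p = 0.00073 and 0.000215). Fbxw7, the ubiquitin ligase subunit that marks Klf2 and Klf5 protein for breakdown, rose by 0.80 ± 0.14 and 0.52 ± 0.13 (limma adjusted p = 0.000942 and 0.0267). Srf, the factor of CArG boxes, rose in LGR5hi by 0.80 ± 0.24, and Tgfb1 by 1.23 ± 0.36. Sin3a, the scaffold that Klf9, Klf10, Klf11 and Klf13 bind, fell in LGR5hi by 0.99 (SE 0.19, limma adjusted p = 0.00221). Between the sorts Smad4 alone was called, higher in non-irradiated LGR5hi cells by 0.60 ± 0.16. The list's median was 0 in LGR5hi and 0.01 in LGR5lo on irradiation.

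Genes known as targets of KLF4 or KLF5 numbered 28, and 25 were tested. In LGR5hi 8 rose and 4 fell on irradiation, and in LGR5lo 9 rose and 1 fell, with medians of -0.06 and 0.38 log2. Of all names 13.5% and 7.49% were called in these comparisons. The growth factor receptor Egfr rose by 1.42 ± 0.24 and 1.37 ± 0.23, the keratin Krt19 by 1.15 ± 0.20 and 0.91 ± 0.19, and the keratin Krt13 by 1.58 ± 0.26 and 1.11 ± 0.25, in LGR5hi and LGR5lo. Pdgfa, a growth factor chain, rose in LGR5lo by 1.33 ± 0.19 and was not called in LGR5hi, at 0.59 ± 0.20. In LGR5hi the mitotic cyclin Ccnb1 fell by 2.04 (SE 0.23), the inhibitor Cdkn1b by 1.48 (SE 0.21), Birc5 by 1.40 (SE 0.23) and the mitotic kinase Cdk1 by 1.14 (SE 0.23). The G1 cyclin Ccnd1 went the other way, at 1.3 ± 0.62 in LGR5hi, not called, and with a rise of 2.09 ± 0.59 in LGR5lo. Ccnb1 also fell in LGR5lo, by 1.0 (SE 0.22). Between the non-irradiated sorts 2 were higher and 3 lower in LGR5hi, where 9.55% of all names were called. The cyclin-dependent kinase inhibitors Cdkn1c and Cdkn1a, were lower in LGR5hi, at -3.0 and -2.43 log2, the direction of Klf4, as was Krt13 at -0.82 ± 0.25, and Pdgfa and Myc were higher by 1.98 ± 0.19 and 0.93 ± 0.18. In irradiated cells Cdkn1c was again lower, at -2.61, and Pdgfa and Myc were again higher, by 1.25 ± 0.20 and 0.79 ± 0.19, whereas Cdkn1a differed by -0.41 ± 0.31. Cdkn1a and several others of this list are also targets of p53, so the list is not specific to KLF proteins.

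Genes whose pattern was most like that of a member were found by Pearson's r over the 17 arrays, which share the 4 group differences, and are given as a description. For Klf4 the highest were Klk1 (0.984), Bcas1 (0.978) and Klk1b8 (0.974), the first and last of which are kallikreins from a cluster of near-identical genes. With the group means taken off, r between Klf4 and Klk1 was 0.915, and the next were Lurap1l (0.833) and the goblet product Tff3 (0.830). Klf4, Klk1, Lurap1l and Tff3 were each lowest of their group on irradiated LGR5lo replicate 4, and r without that array was not computed. Klk1 averaged 3.18 ± 0.31 and 5.29 ± 0.56 in non-irradiated, and 2.64 ± 0.02 and 5.64 ± 0.45 in irradiated LGR5hi and LGR5lo cells (SD, n = 4 or 5). Its difference between the sorts was -2.11 ± 0.27 log2 (SE) without irradiation and -3.01 ± 0.28 with it.

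For Klf6 the highest were Tnfaip3 (0.958), an inhibitor of NF-κB signalling that is induced by it, the immediate early gene Egr1 (0.952) and Errfi1 (0.946), an inhibitor of the EGF receptor. Egr1 rose by 2.92 ± 0.38 log2 in LGR5hi and 1.81 ± 0.36 in LGR5lo (limma adjusted p = 7.21e-05 and 0.00564), and Tnfaip3 by 1.83 ± 0.26 and 1.56 ± 0.25. After removal of the group means none of these 3 was among the closest, which were Slc22a5 (0.898), Rpgr (0.859) and Cdc25b (0.855). Klf6, Slc22a5, Rpgr and Cdc25b were each lowest of their group on non-irradiated LGR5lo replicate 2. Their values there were 1.90, -0.98, -0.14 and 1.74, and r without that array was not computed. For Klf7 the highest were N4bp3 (0.971), Pitpnm2 (0.964) and the DNA repair gene Mgmt (0.963), which rose by 2.61 ± 0.23 and 2.63 ± 0.22. Within groups they were Zfp184 (0.907), Cnpy3 (0.900) and Slc7a5 (0.899). Klf7, Zfp184, Cnpy3 and Slc7a5 were each lowest of their group on non-irradiated LGR5hi replicate 3. For Klf2 the highest were Hsd11b2 (0.934), which inactivates glucocorticoid, Gpc1 (0.921) and Kif5c (0.911). Kif5c was not well above background on any flagged LGR5hi array, so that its LGR5hi values hold no order. Within groups they were Eid2b (0.842), Sall2 (0.841) and Tceal1 (0.795). Klf2 and these 3 were each highest of their group on non-irradiated LGR5hi replicate 1 and lowest on replicate 2. For Klf2 and Klf7, r without those arrays was not computed.

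**Figure D5:**
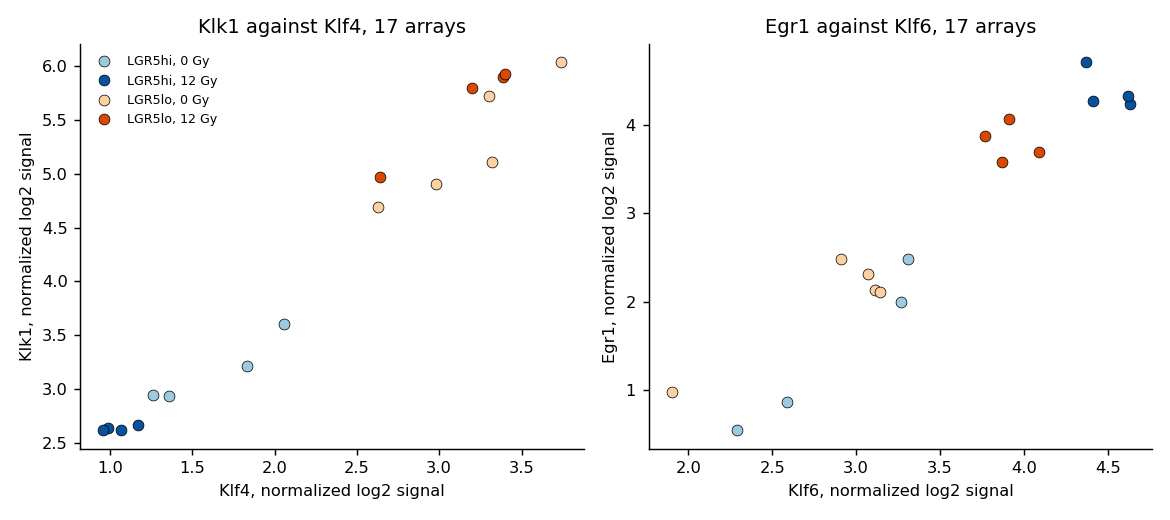
Klk1 against Klf4 and Egr1 against Klf6, normalized log2 signal, with 1 point per array over the 17 arrays, coloured by group. For Klk1 and Klf4, r was 0.984 over arrays and 0.915 for deviations from group means pooled over the groups. Among irradiated LGR5hi arrays Klk1 was nearly flat (SD 0.02). For Egr1 and Klf6 the irradiated arrays form the upper right of the plot.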

How the data were processed

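Deposited values were fluorescence intensities of 1-colour Agilent arrays, extracted by the authors with Agilent Feature Extraction 10.7.3.1 per the file headers, and a series table of the authors' processed log2 values. Each log2 processed signal was set relative to the 75th percentile of its array's non-control probes; replicate spots were averaged. For non-irradiated LGR5hi replicate 1 the scanner file was damaged, and values came from the deposited log2 table, which matched 100% of probes within 0.02 log2 on the 16 arrays with whole files; it has no spot flags. Probes well above background on at least 4 arrays were kept (41440), and the kept probe with the highest mean stood for a gene name. The 75th percentile intensity was 286 to 627 over 16 arrays; the number of arrays limits the precision. Group means were fitted with limma 3.58.1 in R 4.3.3 over 17 arrays, two-sided, with Benjamini-Hochberg adjustment over 27768 names, and summaries used Python 3.11.15. In data simulated for irradiation in LGR5hi with 27768 genes, 42% of 100 genes changed by 1 log2 and 72% of 100 changed by 2 were recovered, with 3 false calls. No other gene was changed there, whereas 3741 names were called in the real comparison. The adjusted p depends on the share of changed genes, so these recovered shares need not hold for the real comparison.

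Members and gene lists were chosen with earlier results of these data known. All 10 members are named. Of each list, up to 4 genes per direction with the smallest p are named if called, and for called members the 3 names with the highest correlation. Ccnd1 was named outside this rule. Same-numbered LGR5hi and LGR5lo arrays deviated together within an arm (r from 0.121 to 0.346 without and 0.175 to 0.456 with irradiation). For unlike numbers r ran from -0.238 to 0.084 and from -0.298 to 0.144. The numbers, from the sample titles, were therefore taken to pair the sorts within an arm. The labels state no pairing, and within an arm each number is also its own combination of sex and slide, which cannot be told apart from it. Across arms r of same numbers ran from -0.100 to 0.220, and no pairing was assumed. Arrays of the 2 arms with unlike numbers but the same sex and slide had r from 0.114 to 0.289 in LGR5hi and 0.092 to 0.186 in LGR5lo. The part of sex and slide in the r within an arm was not tested. Alternatives were the scaling, background correction, filter, probe choice, sex, slide, replicate block, variance model, array weights and leaving out each array. Promoters were taken from RefSeq (GRCm38.p6); probe positions are mm9 per the file headers.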

Additional observations from a re-analysis of the deposited data

Results flagged for a closer look

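Of 40 member-by-group sets of arrays checked for an array far from the rest, 3 held one, and chance gives about 1 in 20. Klf6 in non-irradiated LGR5lo was lowest on replicate 2, at 1.90, with the other arrays from 2.91 to 3.14 (gap over range 0.818). Klf11 was highest on that same array, at -2.13, with the others from -3.56 to -3.15 (0.713). That array had 95.6% of its spots well above background. Klf10 in non-irradiated LGR5hi was highest on replicate 2, at 2.22, with the others from 1.62 to 1.72 (0.844).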

How the results depend on the processing

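No called difference of a member changed sign under any alternative run. Members called with 1 array left out numbered 2 to 2 (irradiation in LGR5hi), 1 to 3 (LGR5lo), 0 to 0 (difference of effects), 2 to 3 (sorts, non-irradiated) and 1 to 3 (sorts, irradiated). For irradiation in LGR5hi the count of 2 became 0 with median centring, 0 on slide 1 alone and 1 on slide 2 alone. In LGR5lo the count of 3 became 1 with median centring, 0 on each slide alone and 1 with only the compared groups. Between non-irradiated sorts the count of 2 became 1 with quantile normalization and 0 with median centring or either slide alone. Between irradiated sorts the count of 2 became 1 with median centring, no filter, sex, or slide 1 alone, 0 on slide 2 alone, 5 with only the compared groups and 6 with array weights. There the replicate block gave 1 over all groups, 3 within arm and 4 as a random effect, and changed no other count of members past 1.5 times. Chosen after seeing the data, leaving out non-irradiated LGR5lo replicate 2 gave 6 with the replicate block within arm and 5 with quantile normalization. The causes were not tested; single slides hold fewer arrays.

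Over all genes, the 5 comparisons called 3741, 2080, 11, 2651 and 1751 names, and median centring called 1240, 990, 0, 963 and 672. It moved the median of all genes from -0.13 to 0.40 for irradiation in LGR5lo and from -0.08 to 0.39 between non-irradiated sorts, and the share of higher calls from 45.9% to 64.8% in LGR5hi, 59.7% to 92.5% in LGR5lo and 35.1% to 14.3% between irradiated sorts. Normexp called 2300 names in LGR5hi and 988 between non-irradiated sorts. Array weights called 7092, 3391, 54, 2544 and 5028. Slide 1 alone called 265, 42, 0, 105 and 319, and slide 2 alone 1567, 461, 0, 246 and 118. With only the compared groups 788 names were called for irradiation in LGR5lo, 1156 between non-irradiated and 3114 between irradiated sorts. The replicate block as a random effect called 4192 between non-irradiated and 2895 between irradiated sorts. The difference of effects called 2 names with normexp or slide as a block, 18 with a trended robust variance, and 19 and 46 with the replicate block within arm and as a random effect. With 1 array left out the counts ran from 2842 to 5191, 1179 to 2538, 0 to 26, 1439 to 4226 and 1062 to 2868. Without non-irradiated LGR5lo replicate 2, the replicate block within arm called 94 for the difference and 5742 between irradiated sorts, and quantile normalization 24 and 3116.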
